A study of Homo sapiens with 8 samples.

Results

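The 9 genes SNAI1, SNAI2, SNAI3, ZEB1, ZEB2, TWIST1, TWIST2, PRRX1 and HMGA2 encode the transcription factors and the chromatin protein most often tied to epithelial-mesenchymal transition (EMT), and the accessible chromatin around them was followed through a TGFβ1 time course. The members are the accessible regions that overlap the annotated gene body of 1 of these genes or the 100 kb on either side of it. They were found by merging the peaks of all conditions that share at least 1 bp, without regard to differences between conditions. A region thus needed a called peak in at least 1 condition. Of 126658 merged regions, 168 were members, between 12 (ZEB1 and TWIST1) and 26 (HMGA2) per gene. A solvent peak was present in 103 members, and a peak at 6, 24 and 72 h of TGFβ1 in 137, 149 and 156. Many members therefore entered through TGFβ1 peaks only. Of these 168, 120 lay over 3 kb from any annotated transcription start site (TSS). The member gene was the nearest protein-coding gene for 113 of them, but for only 4 of the 21 around SNAI3, which sits in a gene-dense stretch next to MVD, CTU2 and PIEZO1.

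Chromatin accessibility had been measured with ATAC-seq: a transposase inserts preferentially into DNA that is not wrapped in nucleosomes. The cells were MCF10A, an immortalised, non-tumorigenic human mammary epithelial cell line of wild-type genotype, kept in medium with horse serum, EGF, hydrocortisone, cholera toxin and insulin in every condition. They had received solvent (BSA in PBS) or 5 ng/ml of recombinant human TGFβ1 for 6, 24 or 72 h, with 2 libraries per condition and 8 in all. The labels place the solvent libraries at 0 h, whereas a figure legend of the study describes a solvent exposure as long as the longest treatment. A single established line was used, so the values describe that line alone. The data are 4 peak lists, 1 per condition, each called jointly on the pair of replicates. Differences between lists therefore cannot be set against the spread of replicates, and none was tested. Every TGFβ1 list was compared with the same solvent list. Promoters of 8 of 8 epithelial marker genes (KRT5, KRT14, KRT17, TP63, CDH1, EPCAM, ITGB4 and ITGA6) carried a solvent peak, with areas between 357 and 8598, and their log2 ratios at 72 h ran from −0.30 (EPCAM) to 1.92 at KRT14 (357, 1084, 1440 and 1354 in the 4 lists), the only one past 2-fold. Of 6 marker genes of other cell types, CD3E, CDH5, MYOD1 and ALB had no promoter peak in any list. PECAM1, an endothelial marker, had one throughout (1351, 1463, 1953 and 2100 in the 4 lists), and PTPRC, a leukocyte marker, had none in solvent but areas of 379, 614 and 892 under TGFβ1. Whether these 2 promoters bear on any value below was not tested.

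EMT-inducing transcription factors repress epithelial genes such as CDH1 and support mesenchymal ones. The SNAIL family (SNAI1, SNAI2, SNAI3) and the ZEB family (ZEB1, ZEB2) are zinc finger proteins that bind E-box sequences and act mostly as repressors. TWIST1 and TWIST2 are basic helix-loop-helix factors that pair with E-proteins, PRRX1 is a homeobox factor of mesenchymal tissue, and HMGA2 is an architectural protein that bends AT-rich DNA. TGFβ1 signals through SMAD proteins, which act together with other factors such as AP-1 dimers of the JUN and FOS families.

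The regions on which the results turn are shown by the base at their strongest 72 h summit and the 100 bp on each side of it, read from GRCh38 on the plus strand, 5′ to 3′. Capitals mark matches to any of 4 motifs searched on both strands: AP-1 (TGACTCA or TGAGTCA), the E-box CACCTG, the SMAD motifs GTCTAGAC and GTCTGGAC, and the C/EBP motif (TTACGCAA, TTATGCAA, TTGCGCAA or TTGTGCAA). The first set holds, for 5 of the genes with a region whose peak area at 72 h was at least 2 times that in solvent, the region with the largest such ratio. There were 7 such genes, and the leading regions of SNAI2 and TWIST1 are not shown, so the set is not the full list of regions past 2-fold.
SNAI1 47.2 kb downstream, chr20:50030119-50030319: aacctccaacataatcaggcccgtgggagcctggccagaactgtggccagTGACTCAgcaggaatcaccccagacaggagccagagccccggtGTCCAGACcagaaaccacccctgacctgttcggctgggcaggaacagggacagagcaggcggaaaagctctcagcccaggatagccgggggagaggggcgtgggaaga
ZEB1 75.4 kb upstream, chr10:31242950-31243150: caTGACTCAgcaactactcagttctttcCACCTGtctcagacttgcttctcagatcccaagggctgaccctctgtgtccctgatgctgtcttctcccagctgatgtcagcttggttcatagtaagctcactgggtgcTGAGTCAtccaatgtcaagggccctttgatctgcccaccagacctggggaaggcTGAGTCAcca
ZEB2 200.4 kb downstream, chr2:144320602-144320802: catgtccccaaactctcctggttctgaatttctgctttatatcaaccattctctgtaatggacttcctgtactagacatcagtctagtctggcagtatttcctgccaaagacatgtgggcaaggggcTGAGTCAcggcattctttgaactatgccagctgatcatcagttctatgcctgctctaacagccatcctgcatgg
TWIST2 66.7 kb downstream, chr2:238914666-238914866: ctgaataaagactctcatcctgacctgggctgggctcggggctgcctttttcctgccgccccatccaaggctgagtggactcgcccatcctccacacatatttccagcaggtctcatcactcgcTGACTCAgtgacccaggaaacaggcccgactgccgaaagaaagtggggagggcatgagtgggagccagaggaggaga
PRRX1 145.0 kb downstream, chr1:170807612-170807812: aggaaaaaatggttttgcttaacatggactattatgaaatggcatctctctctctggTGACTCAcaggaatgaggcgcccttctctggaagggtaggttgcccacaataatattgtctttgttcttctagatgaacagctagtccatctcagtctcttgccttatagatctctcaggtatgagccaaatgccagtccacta
The second set holds the PRRX1 promoter and the HMGA2 region, which had no solvent peak, and the ZEB2 region, whose peak was missing from the 72 h list, so that its window is centred on the strongest summit of the other lists.
PRRX1 promoter, chr1:170662199-170662399: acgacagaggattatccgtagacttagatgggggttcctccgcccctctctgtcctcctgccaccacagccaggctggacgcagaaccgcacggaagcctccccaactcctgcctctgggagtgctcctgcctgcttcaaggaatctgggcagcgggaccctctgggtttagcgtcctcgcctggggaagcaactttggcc
HMGA2 5.2 kb upstream, chr12:65819124-65819324: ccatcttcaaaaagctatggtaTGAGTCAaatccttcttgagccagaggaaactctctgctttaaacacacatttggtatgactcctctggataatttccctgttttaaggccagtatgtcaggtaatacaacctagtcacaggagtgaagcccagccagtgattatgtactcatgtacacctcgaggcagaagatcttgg
ZEB2 9.0 kb upstream, chr2:144529941-144530141: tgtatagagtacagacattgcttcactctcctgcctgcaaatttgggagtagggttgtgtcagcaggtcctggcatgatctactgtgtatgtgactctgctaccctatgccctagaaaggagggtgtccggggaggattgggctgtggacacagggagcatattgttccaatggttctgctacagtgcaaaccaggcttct
The ZEB1 window held 3 AP-1 matches and 1 E-box, and the SNAI1 window 1 AP-1 match and 1 SMAD match. The windows of TWIST2, PRRX1 at 145.0 kb, ZEB2 at 200.4 kb and HMGA2 held 1 AP-1 match each. The PRRX1 promoter and the lost ZEB2 region held no match to any of the 4 motifs. Over all 11 regions past 2-fold, shown or not, AP-1 was matched in 8. A match describes letters only and is no evidence of binding.

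At the promoters, 8 of the 9 genes already had a peak in solvent, whose scaled area differed little under TGFβ1, while the PRRX1 promoter had no solvent peak. A promoter region here lies within 1 kb of a TSS of the gene, and its value is the summed peak area of the region. This area, called AUC by the peak caller, is the area under the curve of significance over the peak, which grows with read depth and with peak length. Areas of the TGFβ1 lists were divided by a factor per list (log2 0.44, 0.38 and 0.25 at 6, 24 and 72 h), so that regions within 3 kb of a TSS had a median log2 ratio of 0. All areas below are on this scale, and 200 is the smallest area in any list as deposited.

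For SNAI1 the promoter area was 1474 in solvent and 1350, 1485 and 1296 at 6, 24 and 72 h. For SNAI2 it was 4104, 4236, 4709 and 5043, the largest log2 ratio of the 8 promoters at 72 h, 0.30. For SNAI3 it was 1456, 1339, 1100 and 1268, with the lowest log2 ratio at 72 h, −0.20. The SNAI1 and SNAI3 promoters thus had the smallest areas of these 8 in every list, well below that of SNAI2. The ZEB1 promoter, shared with the divergent ZEB1-AS1, had areas of 4654, 4599, 4320 and 4118. That of ZEB2, which lies 3.4 kb inside its outermost annotated start, had 2673, 2904, 2898 and 2846. On this scale ZEB1 was thus slightly lower and ZEB2 slightly higher under TGFβ1 at 72 h, with log2 ratios of −0.18 and 0.09. The TWIST1 promoter had areas of 4117, 4121, 3749 and 4083. That of TWIST2 had 3105, 3659, 3186 and 3273. For HMGA2 the area was 5224, 5557, 5137 and 6356, the largest of the 9 genes in every list, with a log2 ratio of 0.28 at 72 h.

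None of the 8 promoter regions with a peak in both lists reached a 2-fold higher or lower area at 72 h (95% exact binomial interval 0 to 36.9%, counting error only), against 3.86% higher and 0.785% lower among 22933 shared regions within 1 kb of any TSS. Their median log2 ratio at 72 h was 0.03, beside −0.04 for all such regions. The scaling centres regions near a TSS on 0, so promoter ratios near 0 are in part set by it. Without scaling, the log2 ratios of the 8 promoters at 72 h ran from 0.05 (SNAI3) to 0.54 (SNAI2). The promoter ratios below 0 at 72 h therefore depend on the scaling. At PRRX1 a weak peak 0.4 kb upstream of the start was listed under TGFβ1 only, with areas of 248, 226 and 171 at 6, 24 and 72 h. A stronger one lay 67.0 kb into the gene, at the TSS of a short PRRX1 transcript, with areas of 471, 621 and 330 and no solvent peak. HMGA2 had a further TSS region 2.2 kb inside the gene, with areas of 167 and 190 at 24 and 72 h and none before. The 72 h areas of the PRRX1 promoter and of this HMGA2 region were under 200, so a region of the same strength could not have entered the solvent list. How often regions within 1 kb of a TSS lacked a solvent peak genome-wide was not counted. Over all regions with a peak in either list, 29.3% had one at 72 h and none in solvent.

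**Figure D1:**
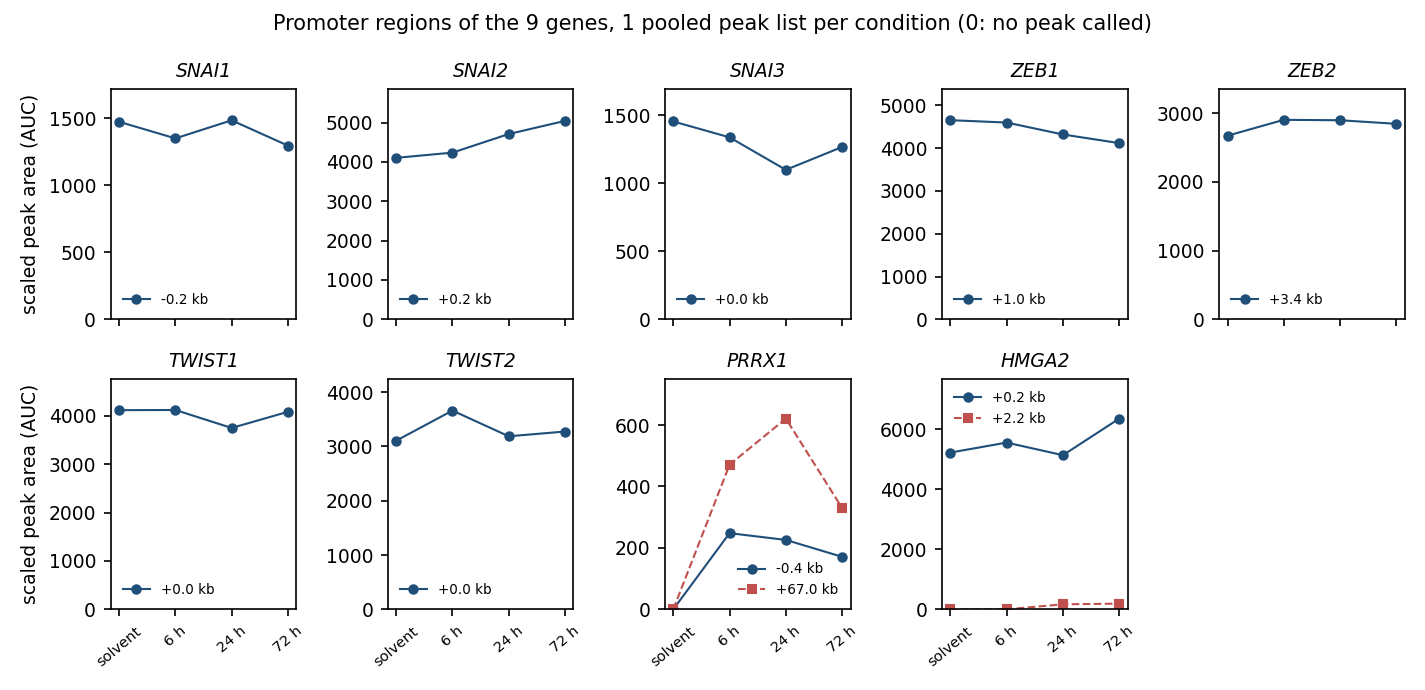
Summed peak area (AUC, scaled to solvent) of every promoter region of the 9 genes in the 4 pooled peak lists, with distance from the gene start in the legend and no error bars because there is 1 list per condition. The 8 regions with a solvent peak had log2 ratios between −0.20 and 0.30 at 72 h, whereas both PRRX1 regions and the second HMGA2 region are at 0, meaning no peak, in solvent.

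Away from the promoters, 7 of the genes had single regions with a solvent peak whose area at 72 h was at least 2 times that in solvent, and at HMGA2 the strongest differences were at regions without a solvent peak. SNAI1, an early target of TGFβ signalling in many epithelia, had 24 regions. The one 47.2 kb downstream of its start had an area of 831 in solvent and 2272, 2469 and 2296 under TGFβ1, so that nearly all of the difference was present at 6 h (log2 1.45, 1.57 and 1.47). A second one, 31.6 kb upstream in an intron of RNF114, had 359, 456, 765 and 945 and so differed mainly from 24 h on (2.63 times solvent at 72 h). Between 20.4 and 52.0 kb downstream, 3 further regions had log2 ratios of 0.59 to 0.73 at 72 h. The lowest SNAI1 values were −0.55, in an exon of the neighbour RNF114, and −0.20, in an exon of SPATA2. SNAI1 had 2 regions with a 72 h peak and no solvent peak, with areas of 192 and 198, both under the smallest solvent area.

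SNAI2, the SNAIL family member with a role in basal mammary epithelium, had 21 regions, of which 9 had a peak at 72 h and none in solvent. The strongest of them, 49.5 kb downstream, had areas of 545, 1162 and 812 at 6, 24 and 72 h. Another, 5.3 kb downstream and just beyond the end of this short gene, had 408, 865 and 759. In both, the largest area was that at 24 h. Next to the first, the region at 48.5 kb had 256 in solvent and 624, 714 and 730 under TGFβ1 (log2 1.51 at 72 h), and that at 47.9 kb had no solvent peak and 389, 409 and 450. In the same stretch 1 region went the other way: at 45.5 kb the area was 297 in solvent, 148 and 229 at 6 and 24 h, and no peak was listed at 72 h. The peak at 45.5 kb was 396 bp long in solvent and 199 bp at 6 h. Per base of peak its log2 ratio at 6 h was 0.13, so the lower area at 6 h went with a shorter called peak. The region at 85.8 kb had 358, 455, 680 and 765 (log2 1.10 at 72 h). The lowest ratio was close to 0, −0.06 at 56.6 kb.

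SNAI3, the least studied SNAIL gene in EMT, had 21 regions and the lowest maximum ratio of the 9 genes at 72 h. None of its 13 regions shared with the 72 h list differed 2-fold, with log2 ratios from −0.40 to 0.74. The highest and the lowest both lay in introns of PIEZO1, the highest with areas of 1050, 1603, 1827 and 1753. Away from the promoter, the next values were 0.21 and −0.11. The 7 regions with a 72 h peak and no solvent peak had areas between 212 and 491, the strongest in an exon of CTU2 and the next, 360, in an intron of PIEZO1, and 2 of them lay in an intron of SNAI3 itself (229 and 248 at 72 h).

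ZEB1, the repressor that forms a mutually inhibitory loop with the miR-200 family, had 12 regions. The one 75.4 kb upstream, within the annotated non-coding genes ZEB1-AS1 and LINC02664, had an area of 442 in solvent and 1017, 1829 and 1918 at 6, 24 and 72 h (log2 1.20, 2.05 and 2.12). Its 72 h area was thus 4.34 times that in solvent, and the area was larger in each later list. An intronic region 108.1 kb into the gene had 303, 472, 450 and 632 (log2 1.06 at 72 h). Of the 3 ZEB1 regions with a 72 h peak and no solvent peak, the strongest lay 2.9 kb upstream of the start, with areas of 150, 373 and 401, and the next, 54.4 kb upstream, reached 310. Away from the promoter the lowest ratio was −0.07, at 284.2 kb.

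ZEB2 had 15 regions and few differences within its own gene body. The largest log2 ratio at 72 h, 1.12, was at 200.4 kb from its start, beyond the gene's end and in an intron of the neighbour GTDC1, with areas of 412, 605, 821 and 893. At 162.9 kb the areas were 595, 1053, 1180 and 1180 (log2 0.99), and at 75.4 kb upstream 216, 285, 421 and 431 (log2 0.99), both just under the 2-fold limit. Regions at 161.7 kb, past the gene, and at 155.9 kb, in a ZEB2 exon, had no peak in solvent or at 6 h, and areas of 369 and 547 and of 262 and 457 afterwards. The lowest ratios of regions with a peak in both lists were −0.10, at 188.6 kb, and −0.03, 32.4 kb upstream. In contrast, the region 9.0 kb upstream, within LINC01412, had 560 in solvent, 484 and 315 at 6 and 24 h, and no peak at 72 h, a lower area in each later list.

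TWIST1 had 12 regions, and those with the largest ratios clustered around the far end of the longest annotated isoform. At 107.1 kb the areas were 200, 404, 413 and 598 (log2 1.58 at 72 h), and the solvent value was at the minimum of the lists. At 97.4 kb they were 606, 1116, 1456 and 1475 (log2 1.28), and at 90.5 kb 241, 397, 454 and 474 (log2 0.98). The strongest region with a 72 h peak and no solvent peak, in an intron of the neighbour HDAC9, had 277, 295 and 598, and the next, at 106.3 kb, had 190 and 226 at 24 and 72 h. The lowest TWIST1 ratio at 72 h was −0.01, at the promoter.

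TWIST2 had 21 regions and, 66.7 kb from its start and just past its end, the largest ratio of all member regions with a solvent peak. The area there was 325 in solvent and 1737, 2237 and 1658 at 6, 24 and 72 h (log2 2.42, 2.78 and 2.35). It was therefore highest at 24 h, and 5.09 times the solvent area at 72 h. Within the gene, the region at 19.2 kb had 375, 677, 816 and 701, past the 2-fold limit at 24 h only, and that 46.1 kb upstream had 318, 400, 521 and 629 (log2 0.98 at 72 h). Upstream, at 26.9 kb, a region without a solvent peak had 311, 617 and 629, and another, 155.1 kb downstream of the start, had 341, 498 and 455. The lowest TWIST2 value at 72 h was −0.30, 90.8 kb downstream, with areas of 956, 1337, 868 and 777, so that it was higher than solvent at 6 h and lower afterwards, and the next was −0.22 at 122.6 kb.

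PRRX1 had the fewest solvent peaks of the 9 genes, 6 of its 16 regions, and all 16 had a peak at 72 h. The 6 shared regions all had larger areas at 72 h than in solvent, with log2 ratios from 0.39 to 1.70 and a median of 0.74. The highest, 145.0 kb from the start and past the gene's end, had areas of 378, 391, 815 and 1231 in the 4 lists, so that it was close to solvent at 6 h and larger afterwards. The next, 43.2 kb upstream, had 440, 500, 707 and 803 (log2 0.87). In an intron at 49.1 kb, no peak was listed in solvent or at 6 h, and the areas at 24 and 72 h were 579 and 1027. An intronic region at 22.6 kb appeared at 72 h alone, with an area of 327. Of the 10 regions without a solvent peak, 3 were listed at 6, 24 and 72 h, 5 at 24 and 72 h, and 2 at 72 h alone.

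HMGA2 had 26 regions. Among all member regions without a solvent peak, the strongest at 72 h lay near its start. At 5.2 kb upstream, in the non-coding gene RPSAP52, the areas were 265, 547 and 1193 at 6, 24 and 72 h. At 12.0 kb, in an intron, they were 561, 653 and 1038. Both were larger in each later list. Past the gene's end, at 144.7 kb, the areas were 718, 668 and 840, and at 175.4 kb a peak of 664 was listed at 72 h alone. The 11 shared regions stayed under 2-fold at 72 h, with log2 ratios between −0.24, at 124.5 kb, and 0.97, at 117.1 kb, followed by 0.67 at 212.1 kb. The member region found in the solvent list alone was also at HMGA2, 224.8 kb from its start, with an area of 339.

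**Figure D2:**
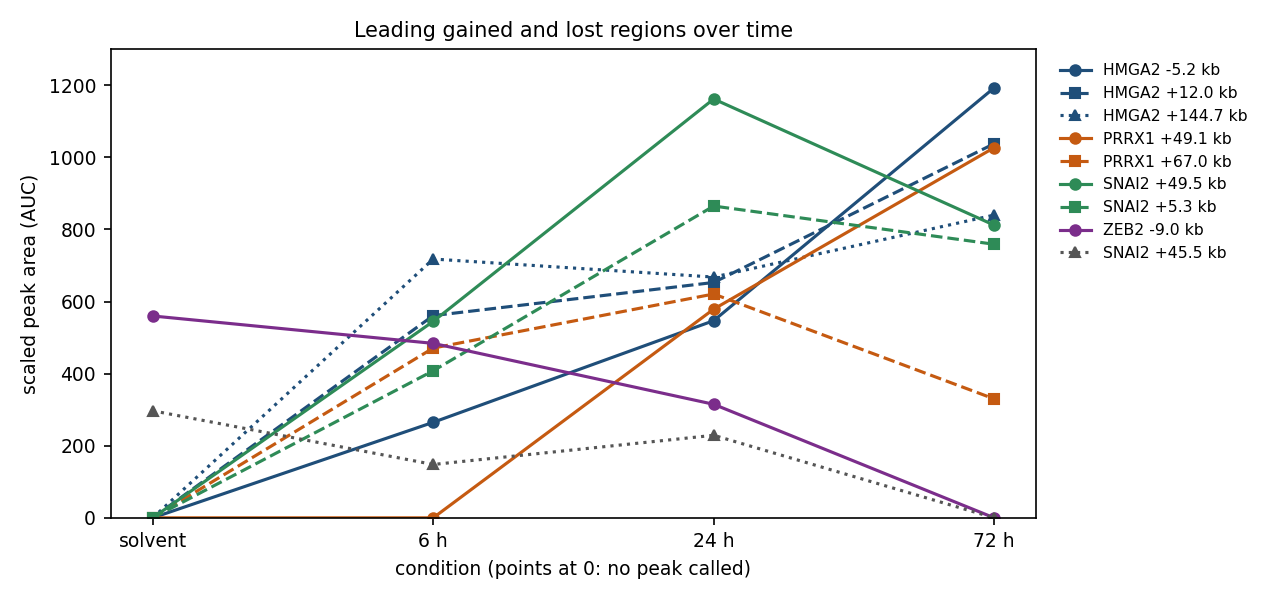
Scaled peak area (AUC) of the leading regions without a solvent peak at HMGA2, PRRX1 and SNAI2, and of the ZEB2 and SNAI2 regions whose peak was listed up to 24 h, in the 4 pooled lists, where a point at 0 means that no peak was listed. HMGA2 5.2 kb upstream reached 1193 at 72 h, whereas ZEB2 9.0 kb upstream went from 560 in solvent to no peak at 72 h.

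Counted together, the regions around the 9 genes changed in presence about as often as regions across the genome. At 6 h, 36 of the 139 member regions with a peak in either list had one under TGFβ1 only, or 25.9% (95% exact binomial interval 18.8 to 34.0%, counting error only, here and below), against 22.9% of all regions. At 24 h the count was 48 of 151, or 31.8% (24.5 to 39.9%), against 29.8%. At 72 h it was 56 of 159, or 35.2% (27.8 to 43.2%), against 29.3%. The member shares were above the genome's at each time, but each interval holds the genome's share. Restricted to regions over 3 kb from any TSS, the shares came closer still: 26.5% of 98, 35.1% of 111 and 36.8% of 114 member regions, against 26.8%, 35.2% and 35.4% of all such regions. Solvent peaks missing under TGFβ1 numbered 2 at 6 h, 2 at 24 h and 3 at 72 h, or 1.44%, 1.32% and 1.89%, against 0.551%, 1.31% and 2.43% of all regions. With lists of equal length, gained member regions made up 12.7%, 17.6% and 18.3% at the 3 times, against 8.69%, 11.9% and 13.8% of all regions.

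By gene, the share of regions gained at 72 h ran from 10.5% at SNAI1 (2 of 19) and 14.3% at ZEB2 (2 of 14) to 52.0% at HMGA2 (13 of 25, interval 31.3 to 72.2%) and 62.5% at PRRX1 (10 of 16, interval 35.4 to 84.8%). SNAI2 stood at 42.9%, SNAI3 at 35.0%, TWIST1 at 33.3%, ZEB1 at 25.0% and TWIST2 at 6 of 20 regions. The intervals of neighbours in this order overlap, and those of PRRX1 and HMGA2 lie above the 29.3% of all regions. Regions of 1 gene share a locus and are not replicates. The order also depends on weak peaks. With every list limited to its 86209 peaks of largest area, PRRX1 kept 1 of 7 regions as gained (14.3%), beside 13.8% of all regions, while SNAI2 kept 7 of 19 (36.8%) and HMGA2 6 of 18 (33.3%). A further limit, added after the data had been seen, required a gained region to reach a scaled area of 200. The counts at 72 h were then 7 of 16 for PRRX1, 10 of 25 for HMGA2 and 8 of 21 for SNAI2. SNAI3 had 7 of 20, TWIST2 5 of 20, ZEB1 and TWIST1 3 of 12 each, ZEB2 2 of 14 and SNAI1 0 of 19. The share over all regions was 24.9%. In another alternative, peaks with an area under 400 as deposited, before scaling, were removed from every list before merging. A region whose solvent peak was under 400 then counted as gained if its 72 h peak was kept. The ZEB1 regions at 35.3, 108.1 and 264.5 kb, with solvent areas of 362, 303 and 388, were such regions. By this count SNAI2 led with 10 of 16 (62.5%). Next came ZEB1 (4 of 8), HMGA2 (8 of 18, 44.4%) and PRRX1 (3 of 7, 42.9%), beside 31.0% of all regions.

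**Figure D3:**
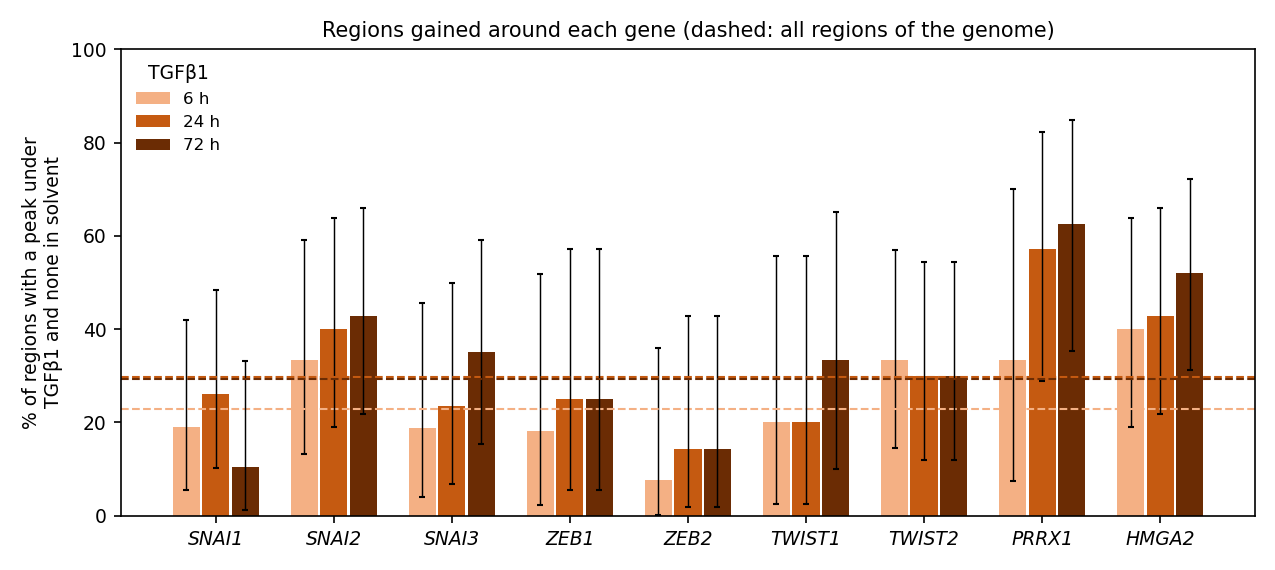
Share of the regions of each gene that had a peak under TGFβ1 and none in solvent, at 6, 24 and 72 h, with 95% exact binomial intervals over regions as error bars and the same share over all regions as dashed lines. PRRX1 (62.5%) and HMGA2 (52.0%) are highest at 72 h and SNAI1 (10.5%) is lowest, against 29.3% of all regions.

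Among the regions with a peak in both lists, those around the 9 genes were again close to the genome in how many passed 2-fold. Areas at least 2 times that in solvent were found for 5 of 101 member regions at 6 h (4.95%), 9 of 101 (8.91%) at 24 h and 11 of 100 (11%) at 72 h (interval 5.62 to 18.8%). Over all shared regions the shares were 3.45%, 8.37% and 10.5%. Areas at most 1/2 of solvent were found for 1 member region at 6 h (0.99%), the SNAI2 region at 45.5 kb, and for none at 24 or 72 h, against 0.215%, 0.935% and 1.23% of all shared regions. The median log2 ratio of the members was 0.14, 0.22 and 0.21 at 6, 24 and 72 h, beside 0.06, 0.12 and 0.15 over all shared regions. Over 3 kb from any TSS it was 0.26, 0.30 and 0.37, beside 0.12, 0.23 and 0.27. A scaling that depends on peak strength brought the member medians to 0.04 at 24 h and 0.09 at 72 h, with the genome at 0.00. At 72 h, 77 of 100 member regions had a larger area than in solvent, beside 63.9% of all shared regions. A further 6 member regions had log2 ratios between 0.9 and 1 at 72 h.

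The 11 regions past 2-fold at 72 h belonged to SNAI1, SNAI2, ZEB1 and TWIST1 (2 each) and to ZEB2, TWIST2 and PRRX1 (1 each). All 11 also had a larger area than in solvent at 6 h, 5 of them past 2-fold, and 8 were past 2-fold at 24 h. The 11 were chosen on the 72 h ratio, and the ratios at all times share the same solvent area. A low solvent area raises every one of them, so these counts are no independent support. The same counts over all regions past 2-fold were not made. The peaks of the 11 regions were also longer at 72 h. The summed peak length in the region at 72 h was between 1.37 and 4.52 times that in solvent, with a median of 2.29, beside 1.11 for all shared member regions and 1.60 for all regions past 2-fold in the genome. At TWIST2 66.7 kb downstream, 244 bp of peak in solvent became 1104 bp at 72 h, and at ZEB1 75.4 kb upstream 257 bp became 768 bp. Per base of peak, 2 of the 11 stayed past 2-fold, TWIST1 at 107.1 kb (log2 1.19) and SNAI2 at 48.5 kb (log2 1.06). TWIST2 at 66.7 kb then stood at 0.24, ZEB1 75.4 kb upstream at 0.61 and TWIST1 at 97.4 kb at −0.35. In 3 of the 11 the solvent and 72 h peaks overlapped by at least 50% of both. Under a scaling that depends on peak strength, 8 of the 11 stayed past 2-fold, TWIST2 at 66.7 kb with 2.06 and ZEB1 75.4 kb upstream with 1.84. In most of these regions the peak length thus differed by a larger factor than the area per base. Length and area per base come from the same peak calls, and the regions were selected on summed area, which grows with length. Whether the peaks widened or strengthened was not tested.

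**Figure D4:**
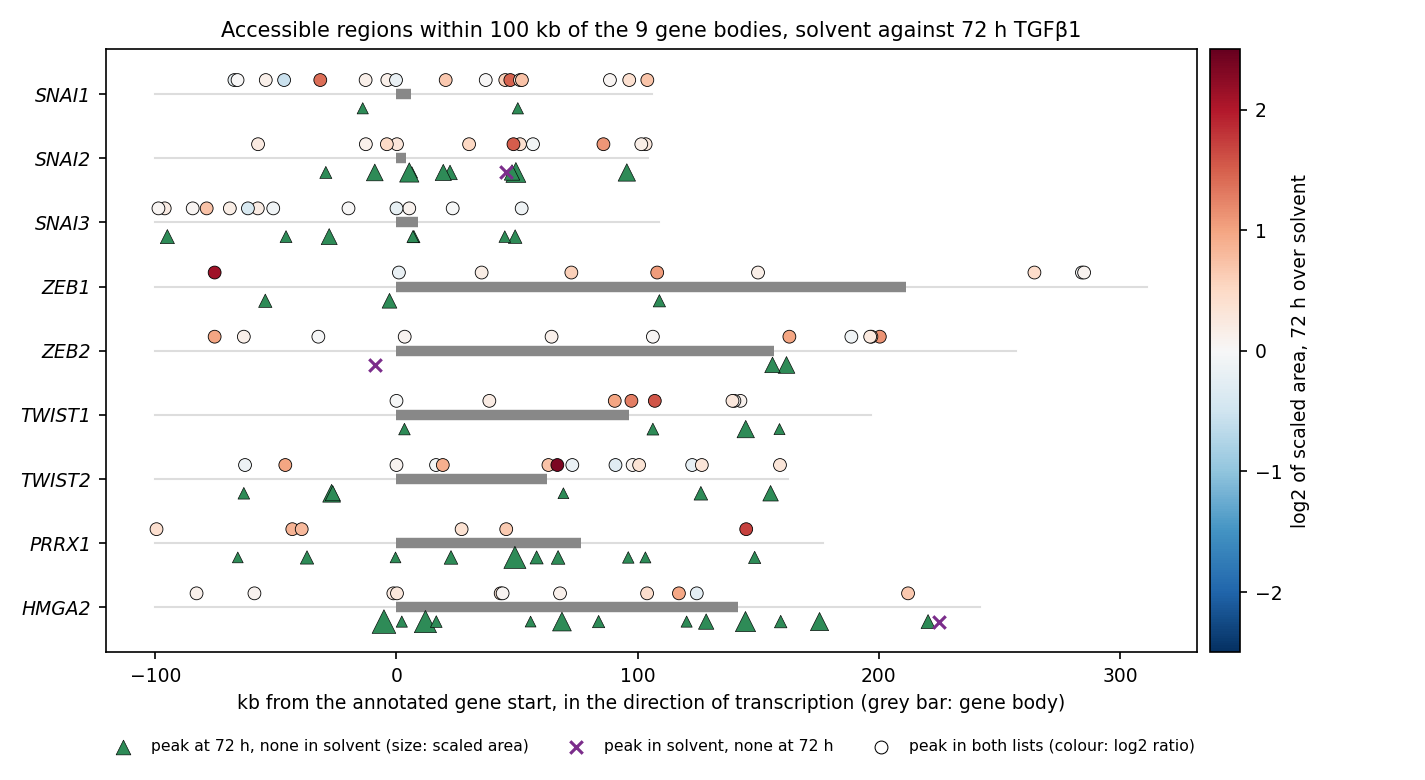
Position of the member regions with a peak in solvent or at 72 h, in kb from the annotated gene start along the direction of transcription. Circles are regions with a peak in both lists, coloured by log2 ratio, triangles have a 72 h peak only (size by scaled area) and crosses a solvent peak only. Regions with the largest ratios, such as TWIST2 at 66.7 kb and ZEB1 75.4 kb upstream, lie away from the starts, and the 3 crosses are at SNAI2, ZEB2 and HMGA2.

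The motifs were counted over all members in the same windows. AP-1 was found in 62 of 168 member regions (36.9%, interval 29.6 to 44.7%), beside 32.4% of all regions. It was most frequent among the regions past 2-fold at 72 h, 8 of 11 (72.7%, interval 39.0 to 94.0%), beside 47.2% of all 8364 such regions. Among regions with a 72 h peak and no solvent peak it was found in 19 of 56 (33.9%), beside 39.9%. By gene it ran from 3 of 21 regions at SNAI3 to 8 of 12 at ZEB1. The E-box CACCTG was found in 42 of 168 (25.0%, interval 18.7 to 32.3%), beside 17.9% of all regions. It was found in 9 of 24 regions at SNAI1, 8 of 21 at SNAI3 and 6 of 12 at ZEB1, and in 0 of 15 at ZEB2. The SMAD motifs were in 2 member regions, 1 each at SNAI1 and SNAI3 (1.19%, beside 0.934%), and the C/EBP motif in 5 (2.98%, beside 3.04%). Matches of different motifs overlapped in 1 member region.

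The promoters of genes that work with these factors also differed by less than 2-fold in scaled area. All 3 E-protein genes (TCF3, TCF4, TCF12), the partners of TWIST proteins, had promoter peaks in solvent and at 72 h, with log2 ratios from −0.13 to 0.35. All 10 genes of co-repressors and chromatin partners, among them CTBP1, HDAC1, KDM1A and EZH2, had values from −0.24 to 0.17. All 4 turnover genes, among them BTRC and GSK3B, had values from −0.13 to −0.02. Of 11 other EMT-inducing factors, 7 had promoter peaks, from −0.26 at FOXQ1 to 0.24, and GSC, LBX1, TBXT and PRRX2 had none in any list. Of the 4 antisense or divergent RNA genes, ZEB1-AS1, ZEB2-AS1 and SNAI3-AS1 had values from −0.18 to 0.09, and HMGA2-AS1 had no promoter peak. ZEB1-AS1 and ZEB2-AS1 share the promoter region of their member gene. The SNAI3-AS1 value sums 3 regions, among them the SNAI3 promoter and a larger region in an exon of MVD. In none of these 5 lists did a promoter pass 2-fold in either direction at 72 h. Passing it was rare among all shared regions within 1 kb of a TSS too (3.86% higher and 0.785% lower). Those shares are of single regions, whereas the gene values sum all promoter regions of a gene. Within 100 kb of these genes, between 18.3% (co-repressors) and 38.9% (antisense genes, whose windows overlap those of the members) of the regions were gained at 72 h, beside 29.3% of all regions.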

How the data were processed

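Per the methods of the study and the submitters' processing notes, the authors used Trimmomatic 0.38 for trimming and Bowtie2 2.4.5 for alignment to GRCh38, removed duplicates with Picard and mitochondrial or low-quality pairs with SAMtools 1.4.1, called peaks with Genrich 0.5 on both replicates of a condition together, and dropped blacklisted regions. The deposited signal is the AUC of each peak, at least 200 and not scaled between lists. Sequencing aimed at an equal depth per library, but read totals are not in the lists. The depth after filtering is therefore unknown, and intervals cover counting error only.

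Here the lists (86209, 107656, 118433 and 116720 peaks) were merged at 1 bp, areas were summed per region and divided by the median ratio to solvent over shared regions within 3 kb of a TSS, and genes were taken from GENCODE 44. All peaks lay within the 23 chromosomes of the GRCh38 sequence used. Named regions were every promoter region and, per gene, of its other regions the 2 with the largest 72 h area without a solvent peak and the 2 with the largest rises and falls in ratio at 72 h, where there were any. Other regions were named after their values were seen. No test was run, since each condition has 1 list. Alternatives covered scaling, area per base, minimum area, list length, overlap, window and each gene left out in turn. The genes, lists and motifs were chosen with earlier results of these data known. The sequences of 2 leading regions are not reported here. Steps were tested on simulated lists. Python 3.11.15, pandas 2.3.3 and scipy 1.17.1 were used.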

Additional observations from a re-analysis of the deposited data

How the results depend on the processing

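Of 183 values recomputed for the 15 pooled results, 141 stayed within the 95% interval of the value reported and 42 moved outside it, and all 36 medians stayed above 0. As defined here, gained and lost shares depend on peak presence alone. Scaling and area per base therefore could not move them, and these unchanged values are among the 141. No replicate could be left out and no paired analysis was possible because the peaks were called on pooled replicates. Without scaling, 14.9%, 22.8% and 19.0% of shared regions were past 2-fold at 6, 24 and 72 h (12.6%, 18.9% and 16.8% of all regions), the medians were 0.58, 0.60 and 0.45, and none was lowered at 6 h (0.0%). Scaling over all shared regions gave a median of 0.06 at 72 h, and intensity-dependent scaling 0.04 at 24 h and 0.09 at 72 h (0.00 over all regions at both times), with 0.0% lowered at 6 h. Per base, 0.0%, 1.98% and 2.0% were past 2-fold (0.84%, 2.51% and 3.11% of all), 0.0% were lowered at 6 h (0.512% of all), and the median at 72 h was 0.11. With a minimum area of 400 as deposited, losses at 6 and 24 h and lowered regions at 6 h were 0.0%. With lists of equal length, gains were 12.7%, 17.6% and 18.3% (8.69%, 11.9% and 13.8% of all regions), losses 8.8% at 24 h and 8.73% at 72 h (9.47% and 11.6% of all), and 0.0% were lowered at 6 h. When only peaks overlapping by 50% of both counted as shared, losses were 5.76%, 7.28% and 8.18% (5.47%, 6.32% and 7.38% of all), and 3.26% and 3.33% were past 2-fold at 24 and 72 h (5.98% and 7.73% of all). Within 50 kb, and for regions nearest to the member's own TSS, losses at 6 and 24 h were 0.0%. Within gene bodies, losses were 0.0% at every time, raised and lowered regions 0.0% at 6 h and the median 0.05 at 6 h. Leaving out SNAI2 took the lowered share at 6 h to 0.0%. Counting gains only from a scaled area of 200, chosen after seeing the data, gave 18.0% at 6 h, beside 14.3% of all regions. Shares of a few regions move with 1 region, and weak gains depend on depth, which is unknown.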
